A study of Mus musculus with 6 samples.

Results

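Complement is a set of plasma and membrane proteins that mark targets for phagocytes. The classical route starts when C1q, a protein assembled from the products of C1qa, C1qb and C1qc, binds a target and switches on the proteases C1r and C1s, which cleave C4 and C2. The alternative route amplifies cleavage of C3 with factor B, encoded by Cfb. C1 inhibitor, encoded by Serping1, shuts down C1r and C1s, and the fragments C3a and C5a act on myeloid cells through the receptors C3ar1 and C5ar1. Tissue macrophages are a known source of C1q, and mesenchymal cells are known to make C3, C4 and C1 inhibitor. The 9 genes described here, C1qa, C1qb, C1qc, C3, C4b, Cfb, Serping1, C3ar1 and C5ar1, were taken by symbol from the 31053 features of the matrices, and each was found.

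They were measured by single-cell RNA sequencing of subcutaneous tumours that Yumm5.2 mouse melanoma cells, kept in culture before, formed in C57BL/6 mice. Every implanted line expressed a hairpin RNA that targets Cdkn2a (shCdkn2a), from a vector giving blasticidin resistance. The control line carried shControl in addition, and the knockdown lines carried shSlc39a9 #1 or shSlc39a9 #2, in a vector giving puromycin resistance. These lines are called the control, hairpin 1 and hairpin 2 lines. Each tumour was started with 350000 cells, and palpable tumours were treated 3 times a week with 200 µg of control IgG or of anti-PD1, an antibody that blocks the checkpoint receptor PD-1 on T cells. Tumours were harvested at 0.5 cm3. Each of the 3 lines gave 1 library per antibody, so that the 4 groups held 1 library (control line, either antibody) or 2 libraries (knockdown, either antibody, 1 from each hairpin). The ages of the mice and the number of tumours per library were not given in the sources used here. The control is a single line, so contrasts between lines measure differences against the spread of treatments within a line and not against the spread among independently made lines. The cells were selected with antibiotics, and nothing says whether a line was cloned.

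The 6 libraries held 5095 to 8881 barcodes and 58859821 to 83204249 unique molecular identifiers (UMIs, counts of distinct captured molecules), and 43260 cells remained after filtering. Cells were sorted into classes by UMI rules that use none of the 9 genes. The classes held 7816 macrophages, 25531 tumour cells, 329 endothelial cells, 58 host fibroblasts, 227 neutrophils and 170 lymphocytes, and 8845 cells met no rule. Slc39a9 in tumour cells stood at 22.7 and 20.9 CPM in the control libraries (CPM is a gene's UMIs scaled to the same total in each class and library), at 7.87 and 8.48 in the hairpin 1 libraries and at 11.9 and 10.9 in the hairpin 2 libraries and so below both controls in each knockdown library. Cdkn2a, which the other hairpin targets in every line, stood at 217 to 350.1 CPM in tumour cells; no line without that hairpin was analysed here and the gene is part of the tumour-cell rule, so its knockdown could not be checked. Of melanocyte genes, the tumour cells held Pax3 (55.2 to 85.1 CPM) and Mitf (14.2 to 21.1 CPM), whereas Sox10, Mlana and Dct were at or under 0.0443 CPM and Tyr at or under 1.503 CPM. Y-linked transcripts were found in 58.5% to 68.1% of macrophages and 2.75% to 3.59% of tumour cells, while Xist was found in 24.6% to 44.1% of tumour cells and 1.27% to 2.14% of macrophages. Reading the Y-linked cells as host cells is an assumption, since neither sex is stated in the labels. The libraries draw their barcodes from a common list: 9556 of 13064 distinct barcode names occurred in more than 1 library. Over the 15 pairs of libraries, shared names were macrophages in both libraries 0.894 to 2.85 percentage points more often than the product of the class shares gives, and whether any cells are shared between libraries was not tested.

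The genes lie in several places in the mm10 assembly, all on the minus strand in GENCODE release 21 for mouse. C1qa (chr4:136895917-136898803), C1qc (chr4:136889804-136893065) and C1qb (chr4:136880129-136886187) are protein-coding neighbours within 18675 bases. C4b (chr17:34728380-34743882) and Cfb (chr17:34856374-34862518) lie within 134139 bases of chromosome 17, and C3 (chr17:57203970-57228136) lies elsewhere on the same chromosome. C4a (chr17:34809092-34823464), a close copy of C4b, is annotated as a processed transcript and is not among the features counted, so reads of C4b could be reads of C4a and its counts are uncertain. Cfb is overlapped on its strand by Gm20547, which held 0 UMIs in macrophages and in tumour cells, and by a microRNA gene that is not among the features, and C2 lies upstream of it (chr17:34862604-34898265). Serping1 (chr2:84765387-84775444), C3ar1 (chr6:122847138-122856161) and C5ar1 (chr7:16246743-16259540) are overlapped by no other annotated gene, and C3 only by a microRNA gene that is not among the features.

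Promoters from RefSeq on GRCm38.p6, 250 bases before to 50 after the start, were at hand for 5 of the 9 genes. Those of C1qb (chr4:136886151-136886450, minus strand) and C1qc (chr4:136892865-136893164, minus strand) are shown because both genes were highest in macrophages in every library. That of C3 (chr17:57228087-57228386, minus strand) is shown because C3 is the member that differed between lines in both macrophages and tumour cells. Capitals mark GAGGAA on either strand, the core bound by the myeloid factor PU.1, in the C1q promoters, and TTGCNNAA on either strand, the form of site bound by C/EBP factors, in the C3 promoter.
C1qb: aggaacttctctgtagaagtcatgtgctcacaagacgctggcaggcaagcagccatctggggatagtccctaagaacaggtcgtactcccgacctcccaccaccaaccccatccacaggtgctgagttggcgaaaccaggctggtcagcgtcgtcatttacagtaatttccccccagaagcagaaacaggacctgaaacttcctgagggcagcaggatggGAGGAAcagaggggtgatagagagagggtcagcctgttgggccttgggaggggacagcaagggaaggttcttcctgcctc
C1qc: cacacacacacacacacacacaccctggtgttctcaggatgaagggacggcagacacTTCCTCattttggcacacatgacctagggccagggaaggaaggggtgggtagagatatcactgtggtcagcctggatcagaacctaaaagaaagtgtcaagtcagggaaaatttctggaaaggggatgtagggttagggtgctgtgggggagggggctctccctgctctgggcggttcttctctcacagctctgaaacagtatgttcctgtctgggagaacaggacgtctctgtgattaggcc
C3: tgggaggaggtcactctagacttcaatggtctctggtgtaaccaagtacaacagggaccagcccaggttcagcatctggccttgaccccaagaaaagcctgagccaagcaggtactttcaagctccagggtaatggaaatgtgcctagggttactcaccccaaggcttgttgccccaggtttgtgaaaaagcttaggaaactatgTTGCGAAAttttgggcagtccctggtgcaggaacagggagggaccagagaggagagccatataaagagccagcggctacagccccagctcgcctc
GAGGAA was present in 28.3% of the 32851 promoters searched, and TTGCNNAA in 10.8%. A gamma-activated site, TTCNNNGAA on either strand, was present in none of the 5 promoters and in 8.30% of all, and an interferon-response half-pair, GAAANNGAA on either strand, only in that of C5ar1 and in 8.56% of all. The motifs did not overlap in the promoters shown.

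The C1q genes were macrophage genes in every library. C1qa in macrophages stood at 2149 CPM with IgG and 2070.1 with anti-PD1 in the control line, at 2725 and 2304 in the hairpin 1 line and at 2443 and 2647 in the hairpin 2 line. C1qb ranged from 2106 to 2644 CPM and C1qc from 1566 to 2037 CPM in the same libraries. Both control libraries held the lowest C1qa, C1qb and C1qc levels of the 6. Macrophages held 72.4% to 88.6% of all C1q UMIs of a library, and cells that met no class rule held most of the rest.

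In tumour cells C1qa stood at 4.93 to 7.30 CPM, C1qb at 4.11 to 7.58 CPM and C1qc at 3.17 to 5.12 CPM. The tumour-cell level was a median of 0.242% of the macrophage level for C1qa, 0.286% for C1qb and 0.219% for C1qc. The same ratio was 0.258% for Adgre1, 0.264% for Ms4a7 and 0.340% for Mrc1, which are macrophage markers, so the C1q ratios lay among or below those of the markers. The share of cells with a C1qa UMI was 71.0% to 85.0% in macrophages (median depth 3281 to 4796 UMIs) and 4.34% to 7.28% in tumour cells (9444 to 13978 UMIs). After each cell was thinned to 2000 UMIs, which left out 100 to 261 macrophages and 87 to 244 tumour cells per library, it was 70.2% to 83.04% and 0.975% to 1.64%. Lymphocytes, which should lack C1q, had a share of 0 to 11.5% at 1077.5 to 1737 UMIs, from 18 to 49 cells per library.

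The share of macrophages with no UMI of any C1q gene was 24.0% and 23.4% in the control libraries, 11.1% and 15.4% in the hairpin 1 libraries and 15.3% and 14.8% in the hairpin 2 libraries. The control shares lay above the 4 knockdown shares, also of hairpin 2, whose macrophages were shallower than those of the control. This difference rests on a single control line and was not tested. The summed level of 6 neutrophil markers in the macrophage class was also highest in the control libraries. It stood at 1692 and 1604 CPM there, at 754 and 1469.5 in hairpin 1 and at 597 and 612 in hairpin 2. Among the knockdown libraries it did not follow the share: hairpin 1 IgG had the lowest share but a higher marker level than both hairpin 2 libraries. The part of neutrophil RNA in the C1q share was not tested.

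C3ar1, the receptor for C3a, followed the C1q genes with a narrower spread. In macrophages it stood at 465 and 459.9 CPM in the control line, 521 and 484 in hairpin 1 and 496 and 523 in hairpin 2, IgG first. The control values were the lowest. In tumour cells its level was a median of 0.382% of that in macrophages, beside 0.385% for the macrophage marker Fcgr1 and 0.459% for Cx3cr1. C5ar1, the receptor for C5a, stood at 85.2 to 117 CPM in macrophages and at 127 to 286 CPM in neutrophils, with the neutrophil value above the macrophage value in every library. The neutrophil values rest on 2 to 51 UMIs per library from 11 to 102 cells. C5ar1 in tumour cells stood at 0.191 to 0.719 CPM. Of the other members, neutrophils held C3 at 0 to 159 CPM from 45 UMIs, the C1q genes at 0 to 105 CPM, C3ar1 at 0 to 51.0 CPM, C4b from 1 UMI, and no UMI of Cfb or Serping1. Lymphocytes held 11 UMIs or fewer of each member.

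**Figure D1:**
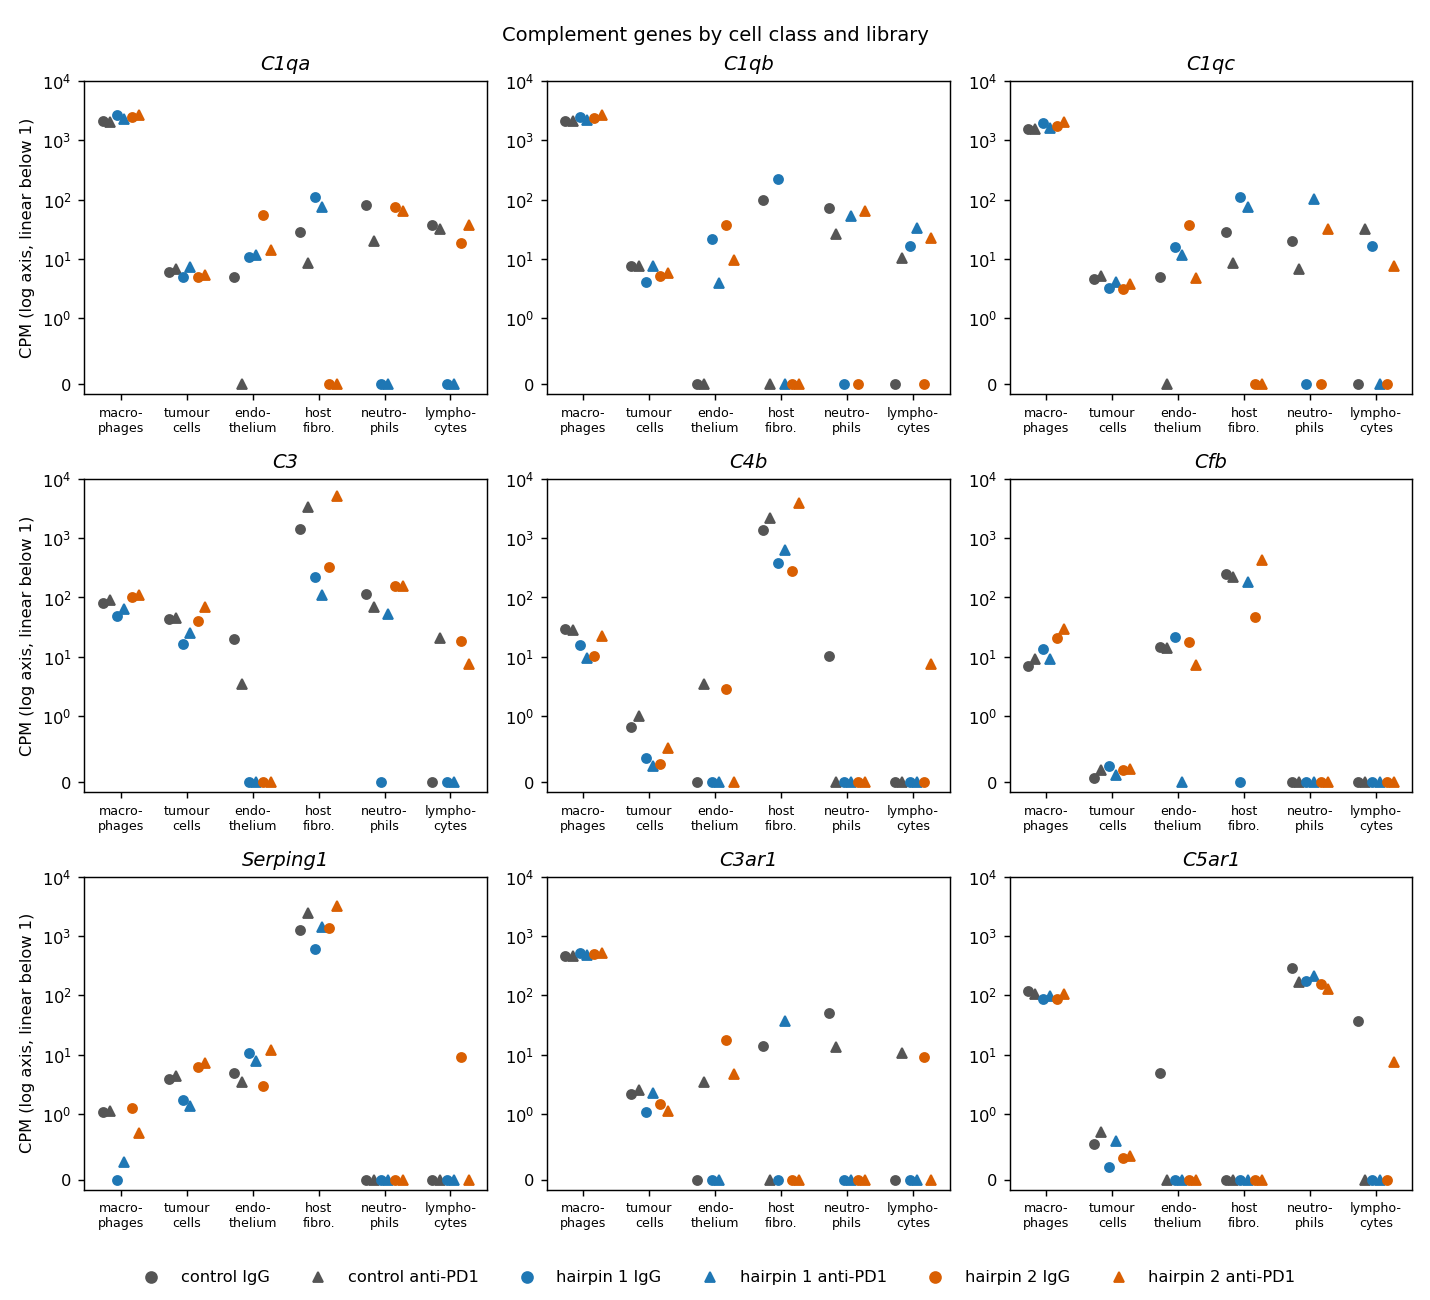
Level of each of the 9 genes in CPM (log axis, linear below 1) by cell class, with 1 point per library (colour for the line, circle for IgG, triangle for anti-PD1). The C1q genes and C3ar1 peak in macrophages, C5ar1 in neutrophils and macrophages, and C3, C4b, Cfb and Serping1 in the 58 host fibroblasts.

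C3, the central component cleaved by all routes, was spread over several classes. In macrophages it stood at 81.1 CPM with IgG and 89.8 with anti-PD1 in the control line, at 49.6 and 64.1 in hairpin 1 and at 102.5 and 111.6 in hairpin 2. In tumour cells it stood at 43.7 and 44.4 CPM in the control line, at 16.2 and 25.6 in hairpin 1 and at 39.8 and 70.0 in hairpin 2. Hairpin 1 was the lowest line in both classes, and its libraries did not overlap those of the other lines. Because tumour cells are many and deep, they held 59.3% to 79.3% of the C3 UMIs of a library, and macrophages held 10.5% to 25.2%. The tumour-cell level was 32.7% to 62.8% of the macrophage level, far above the ratio of the macrophage markers. In the other direction, tumour-line genes stood in macrophages at a median of 8.68% (Xist), 11.7% (Pax3) and 12.6% (Grem1) of their tumour-cell level, whereas C3 stood there at 226%.

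C3 in tumour cells came from few cells. The 5% of tumour cells with the most C3 held 61.5% to 89.3% of its UMIs, and 22.3% or fewer of tumour cells had any. Tumour cells with 5 or more C3 UMIs made up 3.66% and 3.47% of the class in the control libraries, 1.78% and 2.27% in hairpin 1 and 3.13% and 6.21% in hairpin 2. These cells carried the marks of the implanted line: Xist was found in 34.0% to 56.9% of them and Pax3 in 50.8% to 62.7%, against 23.5% to 43.2% and 38.1% to 54.1% of tumour cells with 0 C3 UMIs. Y-linked transcripts were found in 0 to 6.62% of the cells with 5 or more C3 UMIs and in 2.66% to 3.60% of those with 0. In the C3-rich cells they were more frequent in each IgG library and less frequent in each anti-PD1 library. Their median depth was 12445 to 20167 UMIs against 9517 to 13809, and the part of depth in these shares was not tested. As levels, Pax3 stood at 55.1 to 72.4 CPM in the C3-rich cells against 54.5 to 85.3 CPM, lower in both hairpin 1 libraries. Xist stood at 49.8 to 192 CPM against 45.0 to 133 CPM, lower in control anti-PD1, hairpin 1 anti-PD1 and hairpin 2 IgG. Pdgfra, of the fibroblast markers, stood at 215 to 292 CPM against 156 to 210 CPM and was higher in each library. Dpt, another fibroblast marker, stood at 22.2 to 41.3 CPM against 22.3 to 44.1 CPM. It was higher in the C3-rich cells only in hairpin 1 IgG and hairpin 2 anti-PD1.

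**Figure D2:**
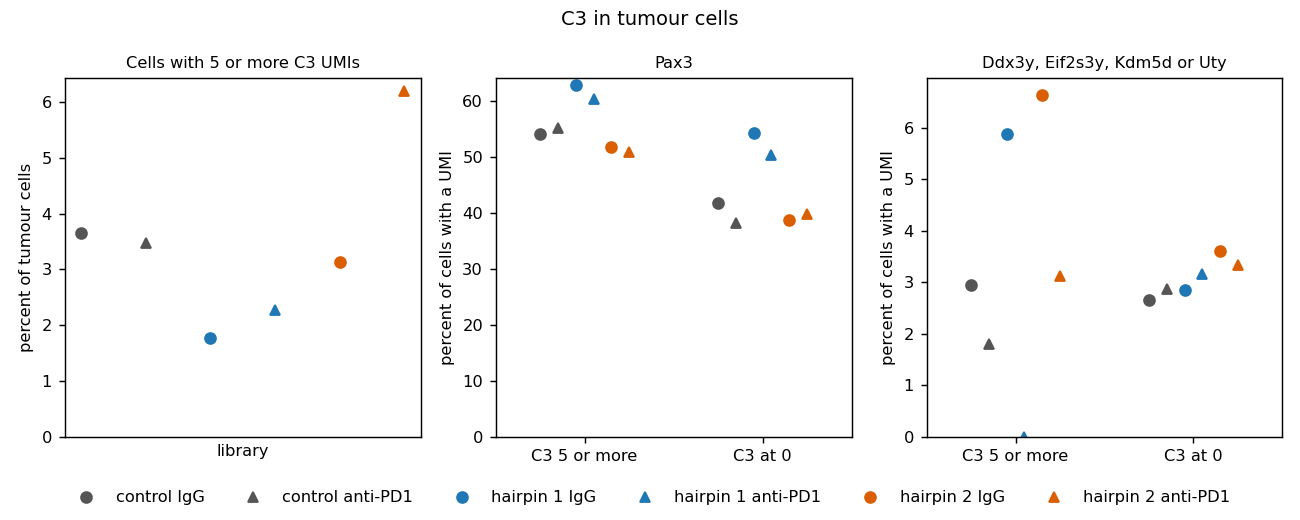
Left, percent of tumour cells with 5 or more C3 UMIs in each library; middle and right, percent of tumour cells with 5 or more or with 0 C3 UMIs that had a UMI of Pax3 or of a Y-linked gene. Hairpin 1 has the lowest shares of C3-rich cells (1.78% and 2.27%). In each library the C3-rich cells, which are deeper, have a Pax3 UMI at least as often as the cells with 0 C3 UMIs.

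C4b, whose product is cleaved by C1s on the classical route, Cfb and Serping1 had their highest levels in host fibroblasts, apart from Cfb in hairpin 1 IgG. This class has only 58 cells, 3 to 23 per library, so its values are counts from few cells. In host fibroblasts C4b stood, IgG before anti-PD1, at 1363 and 2216 CPM in the control line, 384 and 629 in hairpin 1 and 279 and 3842 in hairpin 2, from 6 to 260 UMIs. Serping1 stood at 1251 and 2394 CPM, 603 and 1407, and 1347 and 3151 in the same lines, and C3 at 1405 and 3366 CPM, 219 and 111, and 325 and 5050.3. Cfb ranged from 0 to 432 CPM, with no UMI in hairpin 1 IgG. The C1q genes held 7 to 11 UMIs each in this class, C3ar1 held 2 and C5ar1 held 0. The 8 fibroblast markers summed to 3618 to 18259 CPM in these cells and were highest in hairpin 2 anti-PD1, which also had the highest C3, C4b, Cfb and Serping1.

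In macrophages C4b stood at 29.3 and 28.4 CPM in the control libraries, 15.6 and 9.73 in hairpin 1 and 10.1 and 22.4 in hairpin 2. The 4 knockdown libraries lay below both controls. In tumour cells C4b did not exceed 1.02 CPM, which was 2.30% to 3.58% of the macrophage level. Cfb in macrophages stood at 6.98 and 9.04 CPM in the control libraries, 13.3 and 9.33 in hairpin 1 and 21.1 and 29.2 in hairpin 2, from 39 to 164 UMIs. Hairpin 2 lay above the other lines without overlap. In tumour cells Cfb was at or under 0.249 CPM.

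Serping1 was the member with tumour cells above macrophages. In tumour cells it stood at 3.92 CPM with IgG and 4.42 with anti-PD1 in the control line, at 1.74 and 1.38 in hairpin 1 and at 6.27 and 7.21 in hairpin 2. The lines did not overlap, with hairpin 1 lowest and hairpin 2 highest. Only 1.06% to 4.55% of tumour cells had a Serping1 UMI. Dpt, a fibroblast marker, was found in 26.8% to 40.9% of these cells, against 15.4% to 23.9% of tumour cells with 0 Serping1 UMIs. Y-linked transcripts were found in 2.55% to 11.8% against 2.65% to 3.51%, and were less frequent only in hairpin 2 anti-PD1. Pax3 was also found more often, in 45.5% to 67.3% against 39.0% to 54.2%. The parts of host fibroblast RNA and of depth in these shares were not tested. In macrophages Serping1 was at 0 to 1.27 CPM, a median of 19.8% of the tumour-cell level, beside the 8.68% to 12.6% of the tumour-line genes. It was too low there to be tested.

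Endothelial cells had few UMIs of any member, with the C1q genes at 0 to 55.3 CPM and C3, C4b, C3ar1 and C5ar1 at 1 to 9 UMIs over all libraries. Cfb stood at 0 to 21.4 CPM in them, from 0 to 6 UMIs per library, and Serping1 at 2.91 to 11.9 CPM. Their mean Cfb was 12.4 CPM, beside 14.8 CPM in macrophages. Their mean Serping1 was 6.97 CPM, beside 4.16 CPM in tumour cells. For macrophages, tumour cells and endothelium, the classes with at least 20 cells in every library, neighbours in the order of mean level were compared over the 6 libraries with an exact two-sided sign-flip permutation test. In 9 of the 18 pairs all 6 libraries had the same direction, which gives the smallest p possible, 0.03125, and an adjusted p of 0.0625 over the 18 pairs, so no pair passed. These 9 were macrophages above endothelium for C1qa, C1qb, C1qc, C4b, C3ar1 and C5ar1, macrophages above tumour cells and tumour cells above endothelium for C3, and tumour cells above macrophages for Serping1. Endothelium and tumour cells could not be ordered for the C1q genes, C4b, Serping1, C3ar1 and C5ar1, since their libraries differed in direction. For Cfb, macrophages were above endothelium in 3 of the 6 libraries, and endothelium above tumour cells in 5 of 6.

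Within the macrophage class the members separated with Mrc1, a gene of mature tissue macrophages, and Ly6c2, a gene of recently arrived monocytes. Macrophages with 2 or more Mrc1 UMIs, 65.2% to 73.6% of the class, held C1qa at 2697 to 3198 CPM, C3ar1 at 573 to 607 CPM and C4b at 12.0 to 38.6 CPM. Those with 0 or 1 Mrc1 UMIs and under 2 Ly6c2 UMIs held C1qa at 540 to 1498 CPM, C3ar1 at 158 to 335 CPM and C4b at 3.16 to 11.2 CPM. In each library all 3 genes were lower in the second set. C1qa in that set stood at 587 and 540 CPM in the control libraries against 835 to 1498 CPM in the knockdown libraries, whereas in the Mrc1 set it stood at 2879 and 2697 against 2875 to 3198.

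C3 and Cfb did not separate with Mrc1: C3 was above in the Mrc1 set in 3 of 6 libraries and Cfb in 2 of 6. Both stood out in cells with Ly6c2. Cells with 2 or more Ly6c2 UMIs numbered 2 to 33 per library. In them C3 stood, IgG before anti-PD1, at 184 and 282 CPM in the control line, 0 and 420.1 in hairpin 1 and 529 and 431 in hairpin 2. Cfb stood at 21.7 and 70.6 CPM, 0 and 117, and 227 and 230.5. The zeros come from the 2 such cells of hairpin 1 IgG. In each of the other 5 libraries both genes stood above that library's levels in either Mrc1 set. Over all libraries those sets held C3 at 40.5 to 166 CPM and Cfb at 5.85 to 34.2 CPM. These sets were cut at UMI counts and are ranges and not cell types, and cells of low depth pass a cut less often: median depth was 3710.5 to 5124 UMIs in the Mrc1 set and 2540 to 3882 in the set with 0 or 1.

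**Figure D3:**
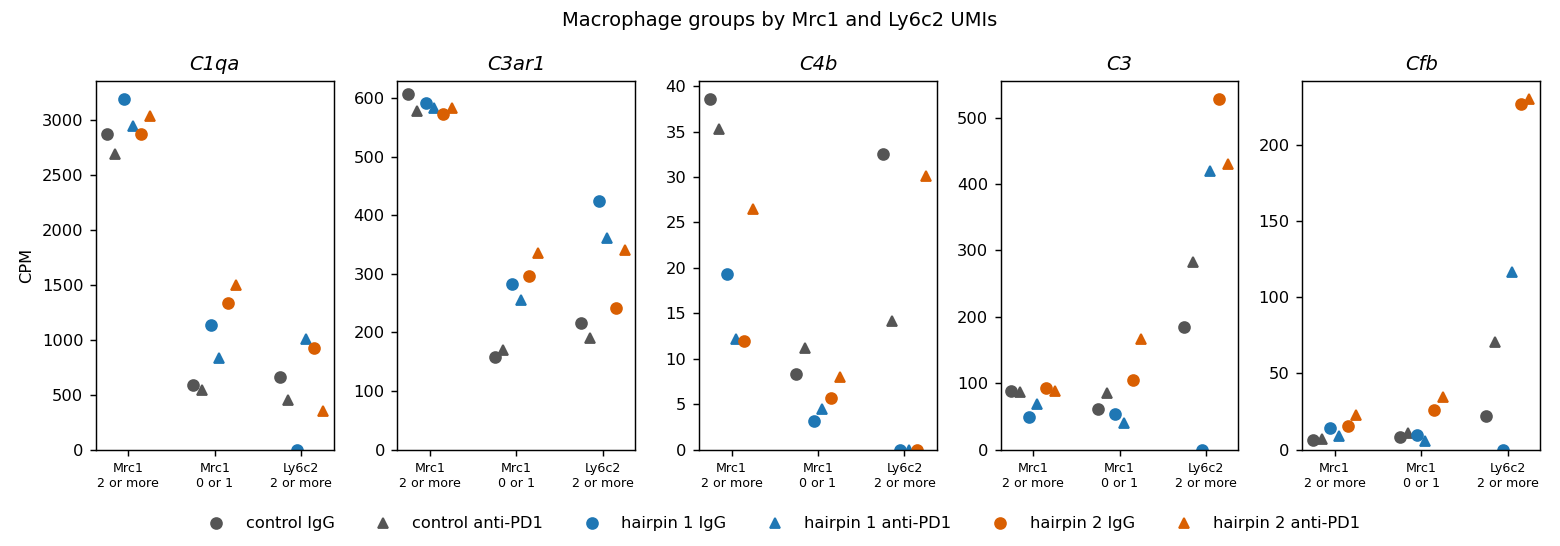
Level in CPM of 5 genes in macrophages with 2 or more Mrc1 UMIs, with 0 or 1, and with 2 or more Ly6c2 UMIs (colour for the line, circle for IgG, triangle for anti-PD1). C1qa, C3ar1 and C4b are higher with Mrc1 than without it in each library; C3 and Cfb are highest in the Ly6c2 set, apart from hairpin 1 IgG, where that set has 2 cells and neither gene.

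The knockdown question was addressed by summing UMIs per library and class and fitting edgeR's quasi-likelihood test to the 6 sums, with genotype and treatment as terms and Benjamini-Hochberg adjustment over all genes. Sums over a class do not tell a change within each cell from a change in which cells of the class were present. In macrophages 0 of the 8 members tested were called for knockdown of Slc39a9 at an adjusted p under 0.05, where 0.0475% of 12625 genes were called (6 genes). At an unadjusted p under 0.05 there were 3 of 8 members and 1158 genes, and DESeq2 called 95 genes (0.441%) and no member. The log2 fold changes were 0.24 ± 0.12 (SE) for C1qa, 0.18 ± 0.12 for C1qb, 0.21 ± 0.13 for C1qc, 0.11 ± 0.09 for C3ar1, -0.28 ± 0.11 for C5ar1, -0.10 ± 0.31 for C3, -1.02 ± 0.33 for C4b (adjusted p = 0.429) and 1.15 ± 0.47 for Cfb (adjusted p = 0.539). The median over the members was 0.14, beside 0.01 over all genes. A further edgeR fit had a term for each line and set the mean of the hairpin lines against control. It takes the difference between the hairpin lines out of the spread. In it 3.86% of genes were called, and of the members Cfb alone, at 1.04 ± 0.24 (adjusted p = 0.0463). With no filter on low counts 3.08% of genes were called, C4b (adjusted p = 8.27e-06) and Cfb (7.88e-05) among them.

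In tumour cells all 9 members were tested and 0 were called for knockdown, where 0% of 15742 genes were called. At an unadjusted p under 0.05 there were 4 members (C1qb, C1qc, C5ar1 and C4b) and 3116 genes, and DESeq2 called 1233 genes (4.93%), C1qc and C4b among them. With no filter on low counts 0.284% of genes and 0 of 9 members were called. The fold changes on the log2 scale ran from -1.44 ± 0.34 (SE) for C4b to 0.53 ± 0.59 for Cfb, with C3 at -0.35 ± 0.54 and Serping1 at -0.06 ± 0.77, and their median was -0.51. With a term for each line, which takes the difference between the hairpin lines out of the spread, 34% of genes were called. Of the members 3 of 9 fell, a share near that background. These were C4b by 1.45 (adjusted p = 0.0089), C1qc by 0.52 (adjusted p = 0.011) and C3 by 0.51 (adjusted p = 0.0328). That value for C3 is the mean of hairpin lines that stood apart, as the contrasts of single lines show.

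Anti-PD1 was compared with IgG in the same fits. In macrophages 0 of 8 members were called, where 0% of genes were called, with log2 fold changes between -0.05 and 0.24. In tumour cells 0 of 9 members were called, where 0% of genes were called, with log2 fold changes between 0.14 and 0.68. No member had an unadjusted p under 0.05 in either class, while 196 genes in macrophages and 124 in tumour cells did, and DESeq2 called 0 genes in both. The interaction of genotype and treatment, tested with edgeR, called 0 genes in either class (134 and 50 at an unadjusted p under 0.05, with no member among them). In tumour cells C3 stood at 70.0 CPM with anti-PD1 against 39.8 with IgG in hairpin 2, at 25.6 against 16.2 in hairpin 1 and at 44.4 against 43.7 in control, a difference that has no replicate within a line.

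The lines were then compared with a term for each line and for treatment, and both hairpin contrasts against control share the 2 control libraries. In macrophages hairpin 1 differed from control in 1 of 8 members, where 6.86% of genes were called. C3 fell by 0.61 ± 0.09 (SE) on the log2 scale (adjusted p = 0.00583), but by 0.26 ± 0.11 (adjusted p = 0.344) with stricter class thresholds. C4b stood at -1.20 ± 0.33 (adjusted p = 0.067). Hairpin 2 differed from control in 1 of 8 members, where 2.5% of genes were called: Cfb rose by 1.61 ± 0.26 (adjusted p = 0.0191). Without the hairpin 2 IgG library that adjusted p was 0.0646, and without the hairpin 2 anti-PD1 library it was 0.275.

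Between the hairpins, 2 of 8 macrophage members were called, where 6.34% of genes were called. C3 was higher in hairpin 2 than in hairpin 1 by 0.91 ± 0.09 (adjusted p = 0.00125), and Cfb by 1.14 ± 0.25 (adjusted p = 0.0312). Cfb was not called by DESeq2 (adjusted p = 0.0826), with doublets kept (0.0638), among macrophages with at most 1 Ly6c2 UMI (0.0666), or without the hairpin 2 IgG (0.0819), hairpin 2 anti-PD1 (0.386) or hairpin 1 anti-PD1 library (0.142), the last with a log2 fold change of 0.66. The neutrophil markers in the macrophage class moved with these contrasts: 5 of 6 were lower in each hairpin line than in control, and 3 of 6 were higher and 1 lower in hairpin 2 than in hairpin 1. Among macrophages with at most 2 UMIs of S100a8 and S100a9 the same members were called in each of the 3 contrasts.

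The tumour cells differed between lines over a large part of the transcriptome, and the members are to be read against that. Hairpin 1 against control called 4 of 9 members, all lower, where 43% of genes were called. Serping1 fell by 1.495 ± 0.18 (SE) on the log2 scale (adjusted p = 0.000823) and C3 by 1.21 ± 0.17 (adjusted p = 0.00173). C4b fell by 1.64 ± 0.36 (adjusted p = 0.0102), from 55 and 65 UMIs in the control libraries against 19 and 11, and C1qc by 0.48 ± 0.13 (adjusted p = 0.0215). Of the 8 macrophage markers 4 were lower in the same tumour-cell sums, and their summed level was 78.0 and 81.3 CPM in the control libraries, 43.5 and 70.4 in hairpin 1 and 52.0 and 61.3 in hairpin 2. Of the 8 fibroblast markers 2 were higher and 3 lower, of the 6 neutrophil markers 1 was higher and 4 lower, and all 3 erythroid markers were higher. The part of the fibroblast markers in the C3, C4b and Serping1 differences was not tested. Among tumour cells with 0 Tyrobp UMIs the C1qc difference was -0.21 ± 0.16 (adjusted p = 0.346), whereas C3, C4b and Serping1 remained called. C1qc missed the threshold also with DESeq2 (0.0941), with stricter class thresholds (0.1) and without any of the 4 libraries of these lines (0.0516 to 0.168). The C4b call was lost without control IgG (0.0596), control anti-PD1 (0.0602) or hairpin 1 anti-PD1 (0.0726).

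Hairpin 2 against control called 3 of 9 members in tumour cells, where 15.9% of genes were called. Serping1 rose by 0.64 ± 0.15 (adjusted p = 0.0343), C1qc fell by 0.56 ± 0.13 (adjusted p = 0.0292) and C4b fell by 1.27 ± 0.33 (adjusted p = 0.0437). C3 stood at 0.20 ± 0.17 (adjusted p = 0.439). None of the 3 calls held with DESeq2 (0.0511, 0.0851 and 0.172) or without any 1 of the 4 libraries of these lines (0.0529 to 0.276). C1qc was again not called among tumour cells with 0 Tyrobp UMIs (-0.20 ± 0.16, adjusted p = 0.42) or without treatment as a term (adjusted p = 0.0504), and 3 of the 8 macrophage markers were lower in these sums.

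Hairpin 2 against hairpin 1 called 2 of 9 members in tumour cells, where 30.9% of genes were called. Serping1 was higher in hairpin 2 by 2.13 ± 0.17 (adjusted p = 0.000398) and C3 by 1.42 ± 0.17 (adjusted p = 0.00152). These calls, and those of C3 and Serping1 in hairpin 1 against control, were kept under each alternative run. Fibroblast markers moved in the same sums, with 4 of 8 higher and 1 lower in hairpin 2 than in hairpin 1, and their summed level was 1269.5 to 1310.3 CPM in hairpin 1 and 1455 to 1483 CPM in hairpin 2. Their part in the difference was not tested.

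**Figure D4:**
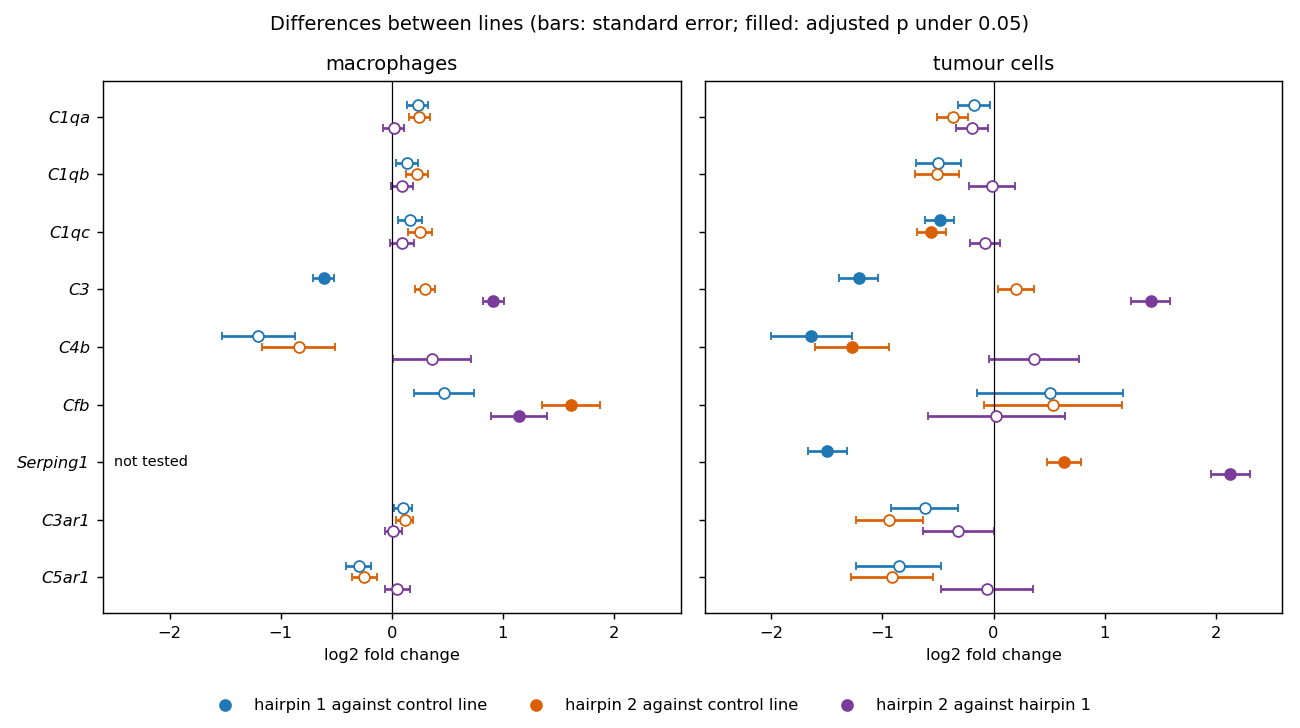
Log2 fold change of each member between lines in macrophages (left) and tumour cells (right), from edgeR; bars are standard errors and filled points have an adjusted p under 0.05. In tumour cells Serping1 runs from -1.495 for hairpin 1 to 0.64 for hairpin 2 against control, and between the hairpins the filled points are Serping1 and C3.

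**Figure D5:**
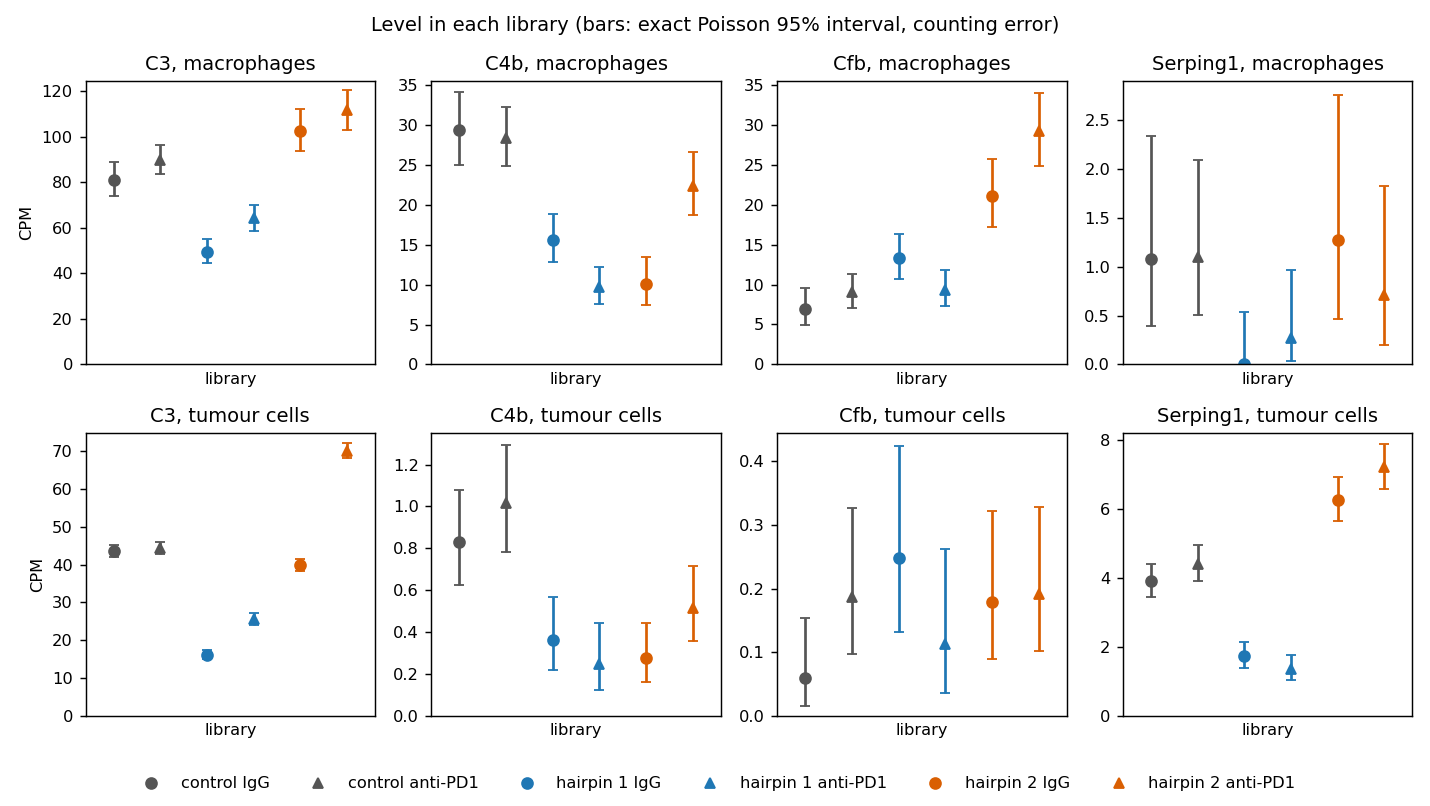
Level in CPM of C3, C4b, Cfb and Serping1 in macrophages (top) and tumour cells (bottom) in each library, with exact Poisson 95% intervals for counting error. C3 is lowest in the hairpin 1 libraries in both classes, Cfb in macrophages is highest in the hairpin 2 libraries, and C4b is highest in the control libraries in both classes.

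In the other classes no member was called. In endothelium none passed the filter on low counts, and 0% of 5828 genes were called for knockdown and for anti-PD1. In host fibroblasts C3, C4b and Serping1 passed it, and 0% of 506 genes were called in either comparison by edgeR, with DESeq2 also at 0. For anti-PD1 the log2 fold changes were 2.55 ± 1.12 (SE) for C3 (adjusted p = 0.875), 2.05 ± 0.82 for C4b (0.816) and 1.15 ± 0.57 for Serping1 (0.942), and C3 and C4b had an unadjusted p under 0.05. For knockdown they were -1.28 ± 1.10, -0.98 ± 0.83 and -0.15 ± 0.59, with no unadjusted p under 0.05. The part of the fibroblast markers, which also differed between these libraries, was not tested.

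Of the other 45 complement genes of the list, 24 passed the filter in macrophages and 24 in tumour cells, and none was called for knockdown or anti-PD1 as a whole. In macrophages hairpin 1 against control called 4 of the 24, all lower, where 6.86% of all genes were called. Itgax (-0.86 ± 0.09) encodes an integrin chain of complement receptor 4, Fcna (-0.69 ± 0.12) the lectin ficolin A and Lrp1 (-0.37 ± 0.08) a scavenger receptor. The last was Cd55, a membrane inhibitor of C3 cleavage at 20 and 24 UMIs in the control libraries against 0 and 2. Hairpin 2 against control called Itgax (0.45 ± 0.09) and C2 (1.34 ± 0.27) higher, and Fcna (-1.21 ± 0.13) lower, where 2.5% of all genes were called. C2, which lies next to Cfb, was also higher in hairpin 2 than in hairpin 1 (1.09 ± 0.26, adjusted p = 0.0414), and stood at 3.94 and 4.28 CPM in control macrophages, 5.20 and 4.80 in hairpin 1 and 11.8 and 9.61 in hairpin 2. Itgax was higher between the hairpins (1.31 ± 0.09) and Cd59a, an inhibitor of the membrane attack complex, lower (-1.05 ± 0.24), where 6.34% of all genes were called.

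In tumour cells hairpin 1 against control called 5 of the 24 higher and 8 lower, where 43% of all genes were called, and hairpin 2 against control 5 higher and 2 lower, where 15.9% were. The genes below are given as values, and calls were common in these sums. C1s1, a gene for the protease C1s that C1 inhibitor blocks, stood at 11.1 and 12.4 CPM in the control libraries, 30.9 and 34.9 in hairpin 1 and 16.9 and 21.3 in hairpin 2. It rose by 1.40 ± 0.08 in hairpin 1 (adjusted p = 5.84e-05) and by 0.64 ± 0.08 in hairpin 2 (adjusted p = 0.00525). C1ra, for the protease C1r, rose by 0.99 ± 0.10 and 0.37 ± 0.10. Hairpin 1 thus had the highest C1s1 and C1ra and the lowest Serping1 of the 3 lines. C2 rose in both, by 0.60 ± 0.10 and 1.56 ± 0.10, as did Masp1, a protease of the lectin route, by 0.21 ± 0.07 and 0.89 ± 0.07. Cd59a rose in hairpin 2 (0.68 ± 0.07) and Cd59b in hairpin 1 (1.74 ± 0.48). Those lower in hairpin 1 were Cr1l, Fcna, Cd93, Itgam, Itgax, Itgb2, Lrp1 and Colec12, and those lower in hairpin 2 were Cd93 and Itgb2. Of these, Itgam, Itgax and Itgb2 stood in tumour cells at a median of 0.278%, 0.261% and 0.515% of their macrophage level, which is in the range of the macrophage markers. Of the 8 macrophage markers, 4 were called lower in these sums for hairpin 1 and 3 for hairpin 2. Adgre1, Ms4a7 and Cx3cr1 were called in neither. The part of macrophage RNA in these differences was not tested. Between the hairpins 5 were higher in hairpin 2 (Cd59a, Itgax, Lrp1, Masp1 and C2), and Cfp, C1ra and C1s1 were lower, where 30.9% of all genes were called.

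By level alone, other complement genes whose mean level in a class reached 50 CPM were often shared between classes. In macrophages these were the receptor chains Itgam (1022 to 1331 CPM) and Itgb2 (269 to 370 CPM), Cfp (555 to 621 CPM), which encodes properdin, a stabiliser of the alternative route, and Lrp1, Cd93, Cr1l, C1qbp, Fcna, Itgax and Clu. In tumour cells they were Lrp1, Clu (596 to 843 CPM), which encodes clusterin, Colec12, C1qbp and Cr1l, and in endothelium Cd93 (1669 to 2120 CPM), Clu, Cr1l and C1qbp. Host fibroblasts held C1s1 at 164 to 1727 CPM and C1ra at 0 to 777 CPM, beside Lrp1, Colec12, Cd55, Csmd1, C2, Cr1l, Masp1 and Clu, each from few cells.

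Among 9785 genes, likeness to each member was measured as Pearson's correlation of log2(CPM + 1) over 24 sums, 4 classes in 6 libraries, which share libraries and depth. C1qa was most like C1qc (r = 0.996), then Ctss (0.971) and Cxcl16 (0.950). C1qb was most like Adgre1 (0.964), C3ar1 most like Arhgap30 (0.983) and C5ar1 most like F10 (0.998). C4b was most like Ifi205 (0.979) and the fibroblast gene Col14a1 (0.971), and Serping1 most like Sfrp4 (0.964). C3 had a weaker best match in Glipr2 (0.914), as had Cfb in Il15ra (0.890).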

How the data were processed

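The authors deposited 6 matrices of raw UMI counts per gene and barcode, made with Cell Ranger 7.0.1 on mm10 per the submitters' processing notes, and the deposited barcodes hold at least 500 UMIs. How reads of overlapping or near-identical genes were counted is not given in the sources used here. Barcodes with fewer than 300 genes or over 20% mitochondrial UMIs were removed, as were doublets marked by Scrublet (scanpy 1.11.5, expected rate 0.06; 0.866% to 1.66%). Macrophages had Tyrobp of at least 2 and Csf1r of at least 1 UMI. Tumour cells had at least 5 UMIs of Spp1, Grem1 and Cdkn2a, Tyrobp at most 1 and Ptprc at 0. Endothelium, host fibroblasts, neutrophils and lymphocytes were set by Cdh5 and Pecam1, by collagen, Pdgfra, Dcn, Lum, Dpt and sex-linked genes, by S100a8 and S100a9, and by T and NK genes. Barcodes meeting more than 1 rule (284) were left out.

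UMIs were summed per library and class and tested with edgeR 4.0.16 (TMM, filterByExpr, quasi-likelihood test, Benjamini-Hochberg adjustment, threshold 0.05); DESeq2 1.42.0 was an alternative. The test was also run on counts simulated without an effect of line, and its results there are not given here. The replicate is the library. Whether libraries of a line came from separate animals is not stated, so p-values may in part measure technical spread. Same-numbered knockdown libraries share a cell line, and deviated together (correlation 0.385 in macrophages, 0.698 in tumour cells). Fits for knockdown with a term for each line are given where they change a call. Knockdown differs only between lines, so these fits cannot correct for the shared line. They take the difference between the hairpin lines out of the spread and treat libraries of 1 line as replicates. Intervals (95%, exact Poisson for levels) cover counting error only. All 9 members are named in every class. Of the 55-gene complement list 54 were found, and a gene other than the members is named where it was called or reached a mean of 50 CPM in a class; 1 gene of the list is counted but not reported here. The members, class rules and lists were chosen with earlier results of these data known. Gene positions come from GENCODE, and promoter sequences from RefSeq. Protein sequences were not used here.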

Additional observations from a re-analysis of the deposited data

Results flagged for a closer look

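The hairpin 1 and hairpin 2 lines differed from each other for 3 members in 4 results. The test was edgeR's, of hairpin 2 against hairpin 1 in the fit with line and treatment. In macrophages Cfb differed by 1.14 and C3 by 0.91 on the log2 scale. In tumour cells Serping1 differed by 2.13 and C3 by 1.42. Against control, Serping1 was lower in the hairpin 1 line and higher in the hairpin 2 line. The hairpin 2 call was lost with DESeq2 and without any 1 of the 4 libraries of the control and hairpin 2 lines. Each line is 1 line with 2 libraries, so an effect of the hairpin cannot be told apart from a difference between lines. Since 6.34% of macrophage genes and 30.9% of tumour-cell genes were called between the hairpins, these differences are not particular to complement genes.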

How the results depend on the processing

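The class order passed in 0 of 18 pairs under a pseudocount of 10, stricter class thresholds and doublets kept, but 6 libraries limit what its permutation test can reach, so this says nothing about stability. Refits of single members were counted for knockdown, for host fibroblasts and, between lines, for members called in at least 1 contrast of lines in that class. Refits for anti-PD1 in macrophages and tumour cells, and of the other members between lines, were not counted. Of the 588 refits counted, 519 kept direction and side of the threshold, 37 lost and 14 gained a call, and 18 changed sign. Each change of sign was for a member that was not called. The share of all genes called moved as well. For knockdown in macrophages it went from 0.0475% to 3.08% with no filter on low counts and to 3.86% with a term for each line. In tumour cells it went from 0% to 34% with that term and to 4.93% with DESeq2. The other shares under these settings are not given here. The counts below, also with 1 library left out, are not to be read as results about the complement genes. Settings that moved the number of members called by over 1.5 times were these, and their causes were not tested. With no filter on low counts, 2 members were called in macrophages for knockdown, 3 for hairpin 1, 3 for hairpin 2, 5 in tumour cells for hairpin 2, and 1 in host fibroblasts for anti-PD1. With a term for each line, 1 was called in macrophages and 3 in tumour cells for knockdown. Without treatment as a term in the line fit, 2 were called in macrophages for hairpin 1. Neither of these changes moved another count by that much. DESeq2 called 1 in macrophages between hairpins, 2 in tumour cells for knockdown and 0 for hairpin 2. Stricter thresholds called 0 in macrophages for hairpin 1, and doublets kept or Ly6c2 of at most 1 called 1 between hairpins.

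Leaving out 1 library at a time gave 1 to 4 members for hairpin 1, 0 to 2 for hairpin 2 and 1 to 2 between hairpins in macrophages. In tumour cells it gave 2 to 5 for hairpin 1 and 0 to 5 for hairpin 2. In host fibroblasts it gave 0 to 1 for knockdown, with C3 called without hairpin 2 anti-PD1 (-3.42, adjusted p = 0.0346, edgeR), and 0 to 2 for anti-PD1, with C3 (3.01, adjusted p = 0.0163) and C4b (2.41, adjusted p = 0.0482) called without hairpin 1 anti-PD1. Of the log2 fold changes that changed sign among the refits counted, macrophage C3 for knockdown ran from -0.34 to 0.090 (0.19 with stricter thresholds). Macrophage Cfb for hairpin 1 ran from -0.016 to 0.96. In tumour cells for knockdown, Serping1 ran from -0.78 to 0.26 (0.010 among cells with 0 Tyrobp), Cfb from -0.33 to 1.72 and C3 from -0.79 to 0.044. C3 for hairpin 2 ran from -0.15 to 0.56, where it was called without control IgG. Between hairpins C4b ran from -0.14 to 0.95, and C1qc was at 0.052 with stricter thresholds and 0.0038 with 0 Tyrobp. In fibroblasts for knockdown Serping1 ran from -0.62 to 0.071 and C4b from -2.13 to 0.11. Depth limits Serping1 in macrophages, Cfb in tumour cells and all members in endothelium and fibroblasts, where few UMIs were counted.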
